A study of Mus musculus with 14 samples.

Results

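The genes described here are 9 transcription factors that establish and hold the identity of the liver's main cell, the hepatocyte: Hnf4a, Foxa1, Foxa2, Foxa3, Cebpa, Onecut1, Prox1, Nr5a2 and Rxra. They were chosen by name as liver-enriched factors, with earlier results of these data known, and they are 9 of the 24411 genes in the count files. All 9 had enough reads to be tested, among 9644 genes that passed the filter on low counts. The question was how their RNA levels stood when a hepatocyte lost the chromatin protein RBBP5, when it met stress of the endoplasmic reticulum, and when it met both.

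RNA was sequenced from livers of male littermate mice of 5 to 7 months, in 4 groups. All mice were homozygous for a floxed Rbbp5 gene (Rbbp5 flox/flox). Those called WT lacked Cre (Alb-CRE -/-), and those called LKO carried 1 copy (Alb-CRE +/-). Cre made from the albumin promoter removes Rbbp5 in hepatocytes, and whether all other liver cells keep it was not tested. Mice of each genotype received, into the peritoneum, tunicamycin at 0.05 mg/kg in 500 µl of PBS with 3% DMSO, or that vehicle alone, given from 9 to 10 am, and the liver was collected after 8 h. There are 3 libraries for each treatment of WT mice and 4 for each treatment of LKO mice. The counts of libraries 3 and 4 of LKO mice given vehicle were nearly as close as sampling noise allows (chi-square over degrees of freedom 1.12, against 3.38 to 25.9 for the 17 other pairs within a group), so they were summed and counted as 1 sample, which leaves 13. No group carried Cre without floxed alleles. The labels number the libraries without saying that each is a separate animal, so p-values measure the spread between these samples.

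Hepatocyte identity is held by a network of such factors that bind each other's genes and the genes of plasma proteins, lipid transport and metabolism. HNF4A is a nuclear receptor at the centre of this network. The FOXA proteins are forkhead factors that open chromatin in liver development, CEBPA is a leucine zipper factor of energy metabolism, ONECUT1 and PROX1 are homeodomain factors, NR5A2 is a receptor that drives bile acid synthesis genes, and RXRA is the common partner of PPARA, FXR, LXR and other receptors. RBBP5 is a core subunit of the complexes that methylate histone H3 at promoters and enhancers. Tunicamycin blocks the first step of N-linked glycosylation, so that unfolded proteins collect in the endoplasmic reticulum.

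The start regions of Hnf4a and Foxa3 are shown because these 2 genes had lower RNA in LKO than in WT livers under tunicamycin. Each run holds 250 bases before and 50 after a start site, taken from RefSeq on GRCm38.p6 and written in the gene's direction, with the letters of a CCAAT box (CCAAT, or ATTGG on the other strand) in capitals. The windows of Hnf4a are its upstream start at chr2:163506607-163506906 (plus strand) and its downstream start at chr2:163546905-163547204 (plus strand), the latter known as the start used in adult hepatocytes, and that of Foxa3 lies at chr7:19023490-19023789 (minus strand).

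Hnf4a upstream start: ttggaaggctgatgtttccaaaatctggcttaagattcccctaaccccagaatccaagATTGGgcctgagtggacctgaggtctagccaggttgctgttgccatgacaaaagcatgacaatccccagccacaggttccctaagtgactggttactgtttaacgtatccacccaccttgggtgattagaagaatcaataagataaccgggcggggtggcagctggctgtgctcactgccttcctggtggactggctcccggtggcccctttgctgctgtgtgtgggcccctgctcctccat

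Hnf4a downstream start: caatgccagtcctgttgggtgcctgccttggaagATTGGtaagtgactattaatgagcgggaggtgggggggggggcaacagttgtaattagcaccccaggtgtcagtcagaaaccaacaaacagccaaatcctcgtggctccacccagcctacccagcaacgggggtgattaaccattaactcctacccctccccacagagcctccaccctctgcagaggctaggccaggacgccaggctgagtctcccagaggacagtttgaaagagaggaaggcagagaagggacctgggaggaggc

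Foxa3 start: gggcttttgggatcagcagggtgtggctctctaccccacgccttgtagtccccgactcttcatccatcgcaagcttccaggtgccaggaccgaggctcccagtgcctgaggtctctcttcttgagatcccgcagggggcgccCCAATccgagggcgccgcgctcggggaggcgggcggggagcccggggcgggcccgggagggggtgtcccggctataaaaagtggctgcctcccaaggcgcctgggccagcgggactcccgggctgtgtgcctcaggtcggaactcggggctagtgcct

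Each of these 3 windows held 1 CCAAT box, at position -192 and -216 from the starts of Hnf4a on the reverse strand, and at -108 from the start of Foxa3 on the forward strand. A CCAAT box is common: 37.4% of 32851 start windows in the table hold at least 1. The ER stress element, a CCAAT box followed by 9 bases of any kind and CCACG, is in 0.119% of windows, searched on both strands, and none of the 15 windows of the 9 factors held it or the UPR element core TGACGTGG (0.676% of windows). A CCAAT box was also found at -157 from the start of Foxa1, -68 in the first window of Foxa2, 44 in the first window of Prox1 and -92 in the second window of Nr5a2. The remaining matches among the 12 motifs searched were a FOX element (TGTTTAC, 3.65% of windows) at -141 in the window of Foxa1, an E-box (CACGTG, 7.15%) at -232 in that of Onecut1, and TGATGNAA (3.97%) at -62 in the second window of Nr5a2. A match is a description of the letters only. The windows differ in base composition: those of Hnf4a are 54.0% and 57.3% G or C with 4 CpG dinucleotides each, near the median of all windows (52.7% and 7), while the first window of Rxra is 83.0% G or C with 55 CpG and that of Foxa3 69.0% with 22.

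Sense-strand reads on genes numbered 6507018 to 13519421 a library. The ribosomal RNA precursor gene Rn45s took 72.5% to 75.5% of them, which left 1704479 to 3551398 reads. Rbbp5 itself was at 4.07 to 6.41 CPM (reads scaled to a common library total, with TMM factors) in the 6 WT samples and 1.90 to 4.15 CPM in the 7 LKO samples, from 19 to 50 reads. Averaged over treatments it was lower in LKO by log2 -0.89 ± 0.18 (SE; edgeR quasi-likelihood test, Benjamini-Hochberg adjusted p = 0.0181), and 1 LKO vehicle sample overlapped the WT range. Ddit3, a textbook marker of this stress, reached 26.3 and 20.4 CPM in WT tunicamycin samples 1 and 3 but 1.30 CPM in sample 2, within the 0.641 to 1.89 CPM of WT vehicle, and 0.390 to 2.04 CPM in LKO tunicamycin. Hspa5, the ER chaperone BiP and another marker of it, was at 854, 313 and 786 CPM in WT tunicamycin 1 to 3, all above the 197 to 253 CPM of WT vehicle, so that sample 2 was the lowest of its group in both. It was at 117 to 173 CPM in LKO vehicle and 142 to 229 CPM in LKO tunicamycin, which overlap. Library WT tunicamycin 3 stood apart over all genes, with a chi-square over degrees of freedom of 25.9 and 25.8 against samples 1 and 2, which gave 6.23 between them. The 24 counted hepatocyte product genes summed to 32100 to 50600 CPM in every sample, although Ass1 had at most 2 reads in any library.

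Levels between the genes were compared per transcript length, with the authors' FPKM values over the 13 samples. Hnf4a was highest at 15.2 ± 2.04 FPKM (SD, n = 13), followed by Rxra at 8.71 ± 0.796 and Cebpa at 6.88 ± 1.32 FPKM. Prox1 stood at 4.05 ± 1.10, Foxa3 at 2.87 ± 0.766, Nr5a2 at 2.76 ± 0.471 and Onecut1 at 2.23 ± 1.63 FPKM. Foxa1 (1.06 ± 0.245) and Foxa2 (1.01 ± 0.313 FPKM) were lowest. In this order the range of Hnf4a alone, 12.3 to 19.4 FPKM, did not overlap that of the next gene, while every other neighbouring pair overlapped.

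**Figure D1:**
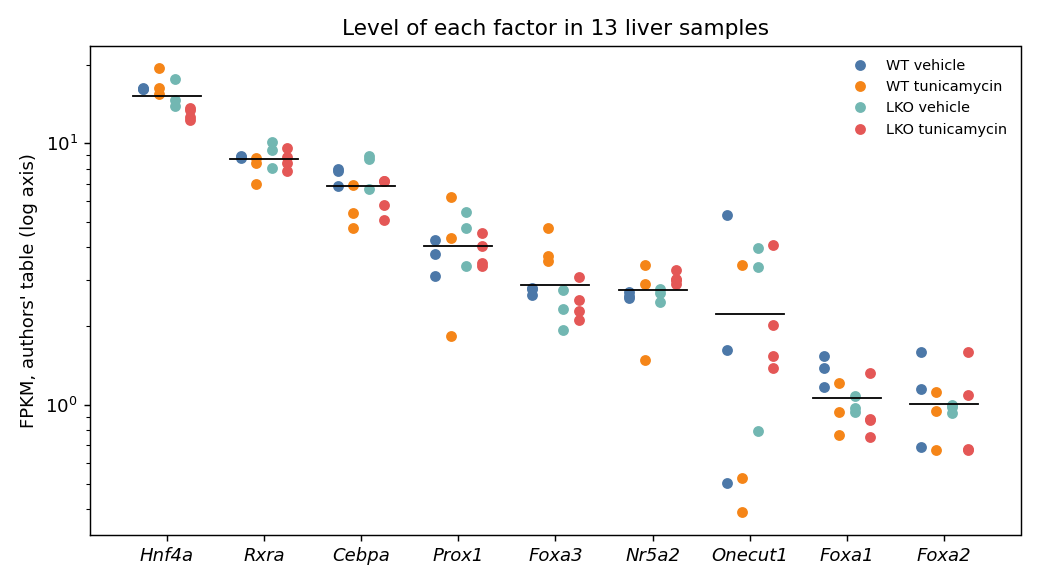
FPKM of each factor (log axis) in the 13 samples, coloured by group, with a line at the mean over samples; LKO vehicle 3 and 4 are averaged. Hnf4a lies between 12.3 and 19.4 FPKM, above Rxra, whose highest sample is 10.1 FPKM, and Onecut1 spreads from 0.388 to 5.32 FPKM.

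Under tunicamycin, LKO livers held less RNA of Hnf4a, at 0.688 times the WT level, and of Foxa3, at 0.567 times, while the other 7 factors did not pass the test. These were the only members called in any comparison of 2 groups (2 of 9, both lower), where 0.861% of all genes tested were called and 0.55% were called lower; an unadjusted p under 0.05 was given to these 2 of 9, beside 15.8% of all genes. The median log2 fold change of the 9 members was -0.05, beside -0.01 over all genes. In whole liver, fewer hepatocytes and less RNA per hepatocyte cannot be told apart.

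Hnf4a, the central nuclear receptor, stood at 183, 173 and 164 CPM in the WT tunicamycin samples and at 121, 119, 115 and 122 CPM in the LKO tunicamycin samples. The groups did not overlap, as was the case for 12.9% of all genes in this comparison. The log2 fold change was -0.54 ± 0.12 (SE; 95% interval -0.79 to -0.30; edgeR adjusted p = 0.0405). In the WT vehicle samples Hnf4a stood at 154, 156 and 152 CPM, between the 2 tunicamycin groups, and in the LKO vehicle samples at 123, 134 and 161 CPM, where the summed sample was the high one. The difference under tunicamycin kept its sign but not its call without any 1 of 9 samples: the adjusted p of Hnf4a was then 0.0723, 0.0702 and 0.0715 without WT vehicle 1, 2 and 3, 0.17 and 0.0514 without WT tunicamycin 1 and 2, and 0.0691, 0.0985, 0.114 and 0.101 without LKO tunicamycin 1 to 4. Deposited FPKM values did not overlap either, at 15.5 to 19.4 against 12.3 to 13.6, although limma on log2(FPKM + 1) gave -0.36 with an adjusted p of 0.137. Of all genes, that limma fit called 0.0427% and the edgeR fit without WT tunicamycin 1 called 0%.

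Foxa3, the forkhead factor most abundant of its family in these livers, had 18.2, 15.4 and 15.7 CPM in WT livers given tunicamycin and 8.26, 8.98, 11.1 and 8.79 CPM in LKO livers given it, from 62 to 132 reads. Every WT sample was above every LKO sample. The log2 fold change was -0.82 ± 0.14 (SE; 95% interval -1.11 to -0.53; edgeR adjusted p = 0.0160). Foxa3 in the vehicle groups stood at 10.7, 10.9 and 10.2 CPM in WT and at 10.1, 7.30 and 8.96 CPM in LKO, so that the 3 WT tunicamycin samples were apart from the 10 others. Without WT tunicamycin 1 the difference of Foxa3 was -0.74 (edgeR adjusted p = 0.109) and without LKO tunicamycin 4 it was -0.78 (0.0519). Limma on log2(FPKM + 1) gave -0.52 (0.1), where the FPKM values, 3.56 to 4.75 against 2.12 to 3.08, did not overlap. Of all genes, the fit without WT tunicamycin 1 called 0%, that without LKO tunicamycin 4 called 0.147% and the limma fit 0.0427%.

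Markers of other liver cells moved with genotype, and their part in the results on Hnf4a and Foxa3 was not tested. Of the stellate cell list, 4 of 10 genes tested rose with the deletion averaged over treatments, where 2.21% of all genes were called: Col1a1 by log2 1.88 ± 0.34 (SE; edgeR adjusted p = 0.0101), Col1a2 by 1.67 ± 0.24 (0.00252), Col3a1 by 1.37 ± 0.28 (0.0173) and Pdgfrb by 1.10 ± 0.22 (0.0162). The summed level of the 11 stellate genes was 114 to 155 CPM in WT tunicamycin and 127 to 205 CPM in LKO tunicamycin, which overlap. Of the bile duct list, all 4 tested were positive in the same average and 2 of 4 were called. These were Spp1, the secreted phosphoprotein osteopontin, by 1.79 ± 0.39 (0.0270) and Cdh1, the epithelial cadherin, by 0.80 ± 0.19 (0.0427). Sox9 was not called, at 1.85 to 6.47 CPM in WT tunicamycin and 2.71 to 5.33 CPM in LKO tunicamycin, which overlap. The summed level of the 10 duct genes was 23.0 to 55.8 CPM in WT tunicamycin and 69.5 to 142 CPM in LKO tunicamycin. Most of that sum was Spp1 (means 22.4 and 58.1 CPM) and Cdh1 (14 and 23.4 CPM). The more specific duct genes Krt7, Krt19, Epcam and Cftr had at most 6, 14, 11 and 6 reads in any sample, and Cldn4 at most 1. None of the 11 Kupffer cell, 11 sinusoidal endothelial or 2 tested lymphatic endothelial markers passed the test in any of the 7 contrasts by edgeR; under tunicamycin 1, 0 and 0 of them had an unadjusted p under 0.05 between genotypes, against 5 of 10 stellate and 2 of 4 duct markers and 15.8% of all genes. All 11 Kupffer values were positive between genotypes under tunicamycin (median log2 0.24) and for tunicamycin in LKO livers (median 0.55), where 7 of 11 had an unadjusted p under 0.05, beside 12.2% of all genes. Summed Kupffer markers were at 67.8 to 92.2 CPM in WT and 74.2 to 141 CPM in LKO tunicamycin, and sinusoidal markers at 152 to 163 and 134 to 170 CPM.

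**Figure D2:**
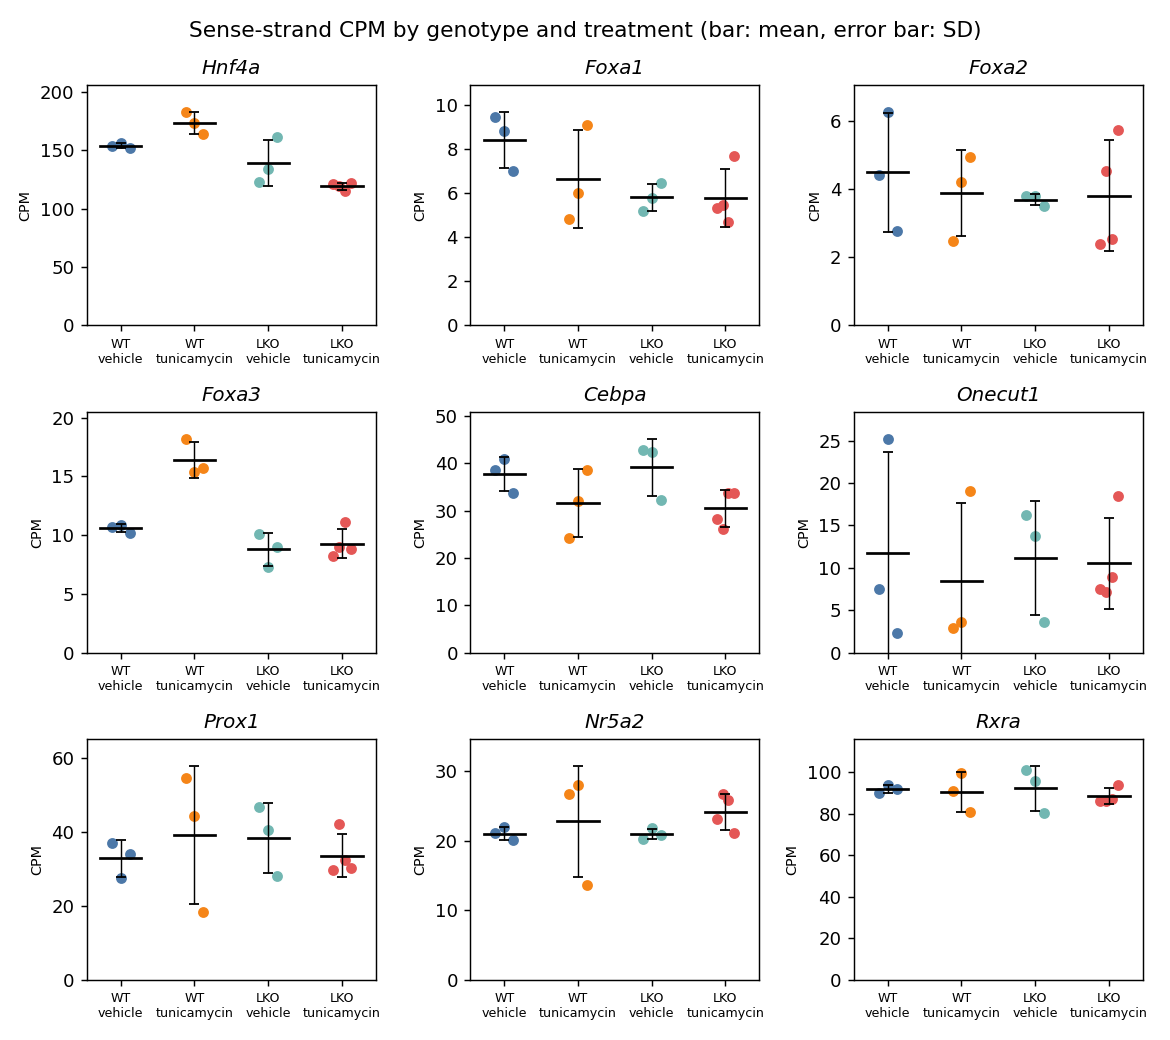
CPM of each factor by genotype and treatment, 1 point a sample (3, 3, 3 and 4 samples), with the group mean as a bar and the SD as an error bar, drawn only above 0; each panel starts at 0. For Hnf4a and Foxa3 the WT tunicamycin points (164 to 183 and 15.4 to 18.2 CPM) lie above all LKO tunicamycin points, while the points of Onecut1 run from 2.33 to 25.2 CPM within the WT vehicle group alone.

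Averaged over both treatments, the deletion went with lower Foxa3, by log2 -0.55 ± 0.10 (SE; 95% interval -0.77 to -0.34; edgeR adjusted p = 0.0111), and lower Hnf4a, by -0.34 ± 0.09 (-0.52 to -0.16; 0.0475). These were 2 of 9 members called, where 2.21% of all genes were called and 0.861% were called lower. Foxa1, another forkhead gene, stood at -0.36 ± 0.15 (adjusted p = 0.229). The call on Foxa3 held without each of the 13 samples (edgeR adjusted p 0.00861 to 0.0389). It was lost in all 3 limma fits of FPKM, at -0.34, -0.45 and -0.34 (adjusted p = 0.101, 0.0924 and 0.0715). These limma fits called 0.262%, 0.451% and 0.912% of all genes. The call on Hnf4a was lost without any 1 of 10: WT vehicle 1, 2 or 3, WT tunicamycin 1, LKO vehicle 1 or 2, or any LKO tunicamycin sample. The edgeR adjusted p of Hnf4a was then 0.0707 (LKO tunicamycin 1) to 0.114 (LKO vehicle 1).

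Without added stress, no member passed the test between LKO and WT livers (0 of 9 by edgeR, 0 by DESeq2 and 0 by limma on FPKM), where 0.0415% of all genes were called; 1 of 9 had an unadjusted p under 0.05, beside 8.15% of all genes. Foxa1 stood at 9.46, 8.84 and 7.00 CPM in WT vehicle and at 5.21, 5.77 and 6.47 CPM in LKO vehicle. These groups did not overlap, and the log2 fold change was -0.53 ± 0.21 (SE; 95% interval -0.98 to -0.08; edgeR adjusted p = 0.540), from 44 to 109 reads a sample. Foxa3 also did not overlap, at -0.28 ± 0.15 (-0.60 to 0.03; 0.631). These 2 of 9 members without overlap stand beside 15.1% of all genes. The difference of Hnf4a was -0.14 ± 0.12 (-0.40 to 0.12; 0.812), with overlap. The remaining members stood between -0.30 (Foxa2) and 0.22 (Prox1), each with overlapping groups.

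In WT livers tunicamycin called no member by edgeR (0 of 9), where 0.363% of all genes were called. The limma fits of FPKM called 0 members, and 0%, 0% and 0.0667% of all genes. DESeq2 called 1, Foxa3, of the 8 members to which it gave an adjusted p, beside 3.35% of the 4594 genes given one. By edgeR 1 of 9 had an unadjusted p under 0.05, beside 14.8% of all genes. Foxa3 was at log2 0.64 ± 0.15 (SE; 95% interval 0.32 to 0.95; edgeR adjusted p = 0.0720) against vehicle, a level 1.55 times as high, and all 3 treated samples were above all 3 controls. The adjusted p of Foxa3 was 0.0376 with DESeq2, 0.0334 with no filter on low counts and 0.0244 without WT tunicamycin 3. Hnf4a, too, had no overlap with vehicle, at 0.17 ± 0.12 (-0.09 to 0.44; 0.556), a sign that turned to -0.02 when library totals alone set the scale. These 2 of 9 stand beside 17.3% of all genes without overlap. Foxa1 (-0.36 ± 0.23; adjusted p = 0.499), Foxa2 (-0.24 ± 0.35; 0.809) and Cebpa (-0.26 ± 0.17; 0.503) had negative and overlapping differences.

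In LKO livers tunicamycin again called no member by edgeR (0 of 9), where 0.0311% of all genes were called. The limma fits of FPKM called 0 members, and 0.0061%, 0.0122% and 0% of all genes. DESeq2 called 0 of the 2 members to which it gave an adjusted p, Hnf4a and Rxra, beside 7.04% of the 668 genes given one. By edgeR 1 of 9 had an unadjusted p under 0.05, beside 12.2% of all genes. Hnf4a stood at -0.23 ± 0.12 (SE; 95% interval -0.47 to 0.02; edgeR adjusted p = 0.461), with all 4 treated samples below the 3 vehicle samples. It was the single member of 9 without overlap, beside 11.6% of all genes. Foxa3 stood at 0.10 ± 0.14 (-0.19 to 0.39; 0.836). Cebpa, the leucine zipper factor, was at 42.8, 42.4 and 32.2 CPM with vehicle and at 28.2, 26.2, 33.6 and 33.8 CPM with tunicamycin, which overlap, a difference of -0.35 ± 0.15 (-0.68 to -0.03; 0.366).

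The test of whether the response to tunicamycin differed between genotypes called 0 of the 9 members by edgeR, DESeq2 or limma on FPKM and 0% of all genes by edgeR. An unadjusted p under 0.05 was given to 2 of 9, beside 4.91% of all genes. For Foxa3 the difference between the responses was log2 -0.54 ± 0.20 (SE; 95% interval -0.97 to -0.11; edgeR adjusted p = 0.935), from 0.64 in WT and 0.10 in LKO livers. For Hnf4a it was -0.40 ± 0.17 (-0.76 to -0.04; 0.938), from 0.17 and -0.23. These contrasts share their samples, so the values of the 4 group comparisons are not separate evidence.

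**Figure D3:**
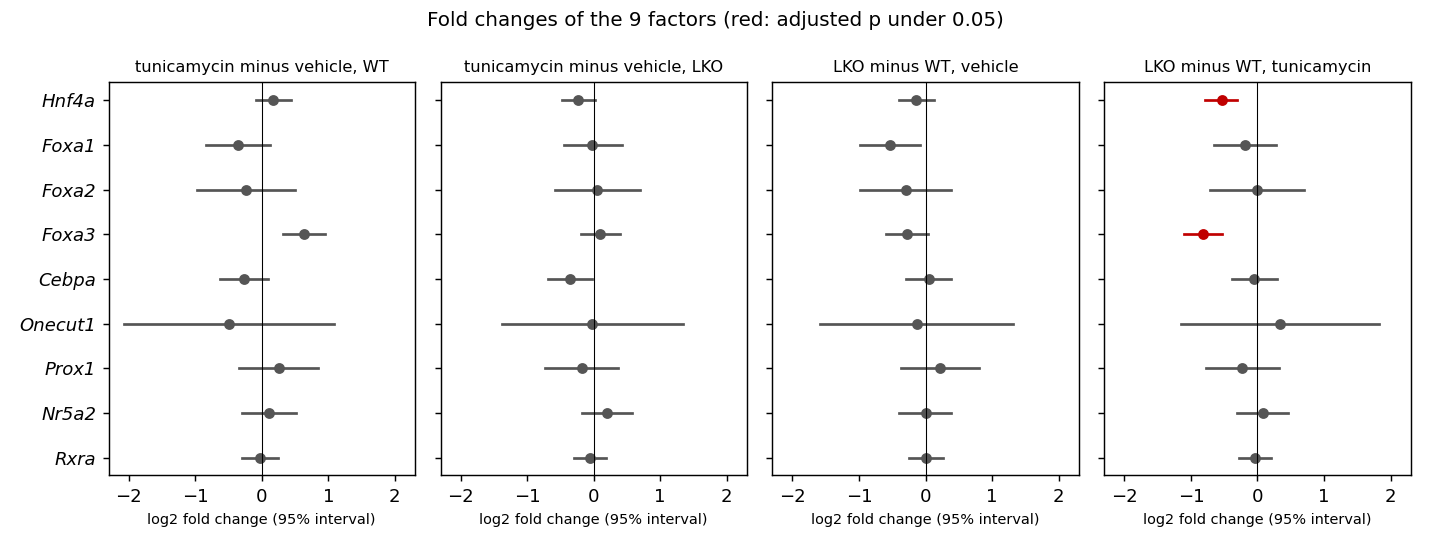
Log2 fold change of each factor (point) with its 95% interval (line) in the 4 comparisons of 2 groups; red marks an adjusted p under 0.05. Hnf4a (-0.54) and Foxa3 (-0.82) are red in the comparison of genotypes under tunicamycin, and the intervals of Onecut1 are the widest of the 9 in each panel.

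Averaged over genotypes, tunicamycin called no member (0 of 9 by edgeR, 0 by DESeq2 and by limma on FPKM). Of all genes, edgeR called 4.32%, DESeq2 5.02% and the 3 limma fits 0.116%, 0.207% and 10.4%. By edgeR 2 of 9 had an unadjusted p under 0.05, beside 20.2% of all genes. Foxa3 stood at log2 0.37 ± 0.10 (SE; 95% interval 0.15 to 0.58; edgeR adjusted p = 0.0505), Cebpa at -0.31 ± 0.11 (-0.55 to -0.07; 0.131) and Nr5a2 at 0.16 ± 0.13 (-0.12 to 0.43; 0.539). Without WT tunicamycin 3, these 3 members passed the test, Foxa3 at 0.38 (adjusted p = 0.0316), Cebpa at -0.39 (0.0278) and Nr5a2 at 0.29 (0.0329), where 10.9% of all genes were called in place of 4.32%. Without LKO vehicle 1, Foxa3 alone passed, at 0.40 (0.0496), where 2.68% of all genes were called.

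WT tunicamycin 3, the library apart from its group over all genes, was also apart in several members. Without it the differences between genotypes under tunicamycin were -0.58 for Hnf4a (edgeR adjusted p = 0.0346) and -0.85 for Foxa3 (0.0207). Nr5a2, the receptor of bile acid synthesis genes, was at 26.8, 28 and 13.6 CPM in WT tunicamycin, the last being the lowest of all 13 samples, against 20.1 to 22.0 CPM in WT vehicle. In LKO livers Nr5a2 was at 20.3, 21.8 and 20.9 CPM with vehicle and at 23.1, 26.7, 25.9 and 21.1 CPM with tunicamycin. Its difference between genotypes under tunicamycin, 0.08 ± 0.18 (SE; edgeR adjusted p = 0.873), became -0.19 without that sample.

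Prox1, a homeodomain factor of hepatocytes that also marks lymphatic endothelium, was at 54.6, 44.4 and 18.4 CPM in WT tunicamycin, and the same sample was its lowest. WT vehicle samples held 37.0, 27.4 and 34.0 CPM, LKO vehicle samples 46.6, 40.4 and 28.1 CPM, and LKO tunicamycin samples 29.7, 42.0, 32.3 and 30.3 CPM. All groups overlapped, with log2 fold changes from -0.23 to 0.26 in the 4 comparisons. Of the lymphatic list, Ccl21a had 0 reads in every sample, which allows up to 3 reads a sample (counting error only), Pdpn at most 5 and Mmrn1 at most 14.

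Onecut1, the other homeodomain factor, varied most: its highest sample was 10.8 times its lowest, and its spread within groups (biological coefficient of variation 0.604) was at the 99.8th percentile of all genes tested. It stood at 7.54, 25.2 and 2.33 CPM in WT vehicle, 2.89, 3.57 and 19 in WT tunicamycin, 16.2, 13.7 and 3.56 in LKO vehicle, and 7.46, 7.16, 8.97 and 18.5 CPM in LKO tunicamycin. Samples under 4 CPM occurred in all groups but LKO tunicamycin, and samples above 16 CPM in every group. With such spread the 95% intervals ran from -2.07 to 1.09 for tunicamycin in WT livers and from -1.15 to 1.83 for genotype under tunicamycin, so that differences of 2-fold in either direction were not resolved.

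Rxra, the shared receptor partner, was steadiest, with its highest sample 1.26 times its lowest. It ranged over 90.2 to 93.9 CPM in WT vehicle, 80.7 to 99.9 in WT tunicamycin, 80.2 to 101 in LKO vehicle and 86.1 to 94.1 CPM in LKO tunicamycin. Its log2 fold changes lay between -0.06 and 0.00, and its 4 intervals between -0.30 and 0.26, or 0.81 to 1.20 times. Foxa2, the forkhead gene of lowest level, had 18 to 59 reads a sample and 2.40 to 6.28 CPM, with overlap in all 4 comparisons, and its intervals reached from -0.98 to 0.70.

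**Figure D4:**
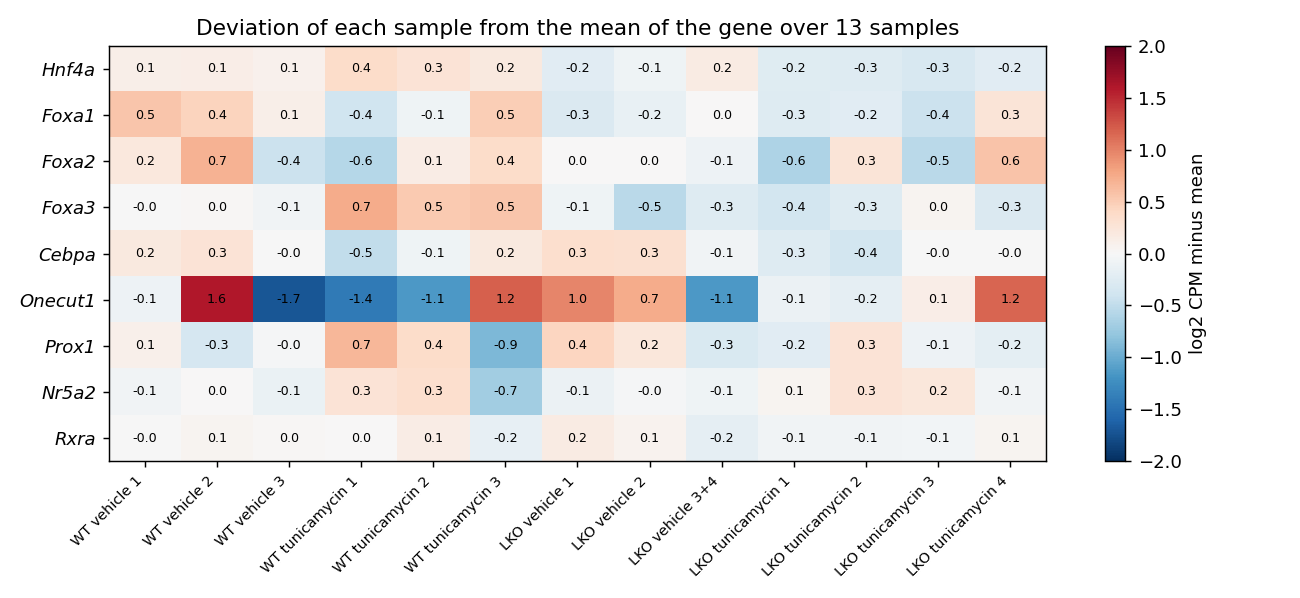
Log2 CPM of each factor (row) in each sample (column) minus the mean of that factor over the 13 samples; red is above and blue below the mean. Foxa3 is red in the 3 WT tunicamycin samples, Prox1 and Nr5a2 are bluest in WT tunicamycin 3, and Onecut1 holds the strongest colours in both directions.

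Across the 13 samples the members formed 36 pairs, of which 0 had an adjusted permutation p under 0.05 for Pearson's r or for Spearman's rho (Benjamini-Hochberg over pairs), and 9 had an unadjusted p of r under 0.05. The highest was Prox1 with Nr5a2, r = 0.73 (permutation p = 0.00708, adjusted 0.104) and rho = 0.46 (permutation p = 0.119, adjusted 0.458). Its r was 0.29 without the 2 samples farthest from the median of Prox1, so it rests on those samples. Within groups, with group means removed, r was 0.82, a value not computed without those samples. Hnf4a and Foxa3 had r = 0.69 (permutation p = 0.00836, adjusted 0.104), rho = 0.57 (permutation p = 0.0457, adjusted 0.329) and r = 0.78 without the 2 farthest, but r = -0.11 once group means were removed. Foxa1 and Foxa2 had r = 0.70 (permutation p = 0.00863, adjusted 0.104), rho = 0.70 (permutation p = 0.00941, adjusted 0.184), r = 0.72 without the 2 farthest and r = 0.76 within groups. Onecut1 with Cebpa had r = 0.63 (permutation p = 0.0224, adjusted 0.122), rho = 0.66 (permutation p = 0.0156, adjusted 0.184), r = 0.60 without the 2 farthest and 0.82 within groups. Other pairs were negative. The lowest was Foxa1 with Nr5a2, r = -0.63 (permutation p = 0.0138, adjusted 0.122), rho = -0.51 (permutation p = 0.0797, adjusted 0.358), and r = -0.72 within groups. Foxa1 with Prox1 had r = -0.61 (permutation p = 0.0273, adjusted 0.123), rho = -0.53 (permutation p = 0.0635, adjusted 0.358), and r = -0.72 within groups.

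The genes most like each member were taken as the 2 of highest Pearson r of log2 CPM over the 13 samples among 5888 genes, as a description of samples that share library and depth. For Hnf4a these were Scarb2 (r = 0.913), a lysosomal membrane protein, and Saraf (0.908), an endoplasmic reticulum protein that regulates calcium entry into the cell. For Foxa3 they were Abcf3 (0.925) and Copb1 (0.891), a coat protein of vesicles. Foxa1 was most like Cyp2d10 (0.887) and Pygl (0.881), the liver glycogen phosphorylase, Cebpa most like Mthfd1 (0.915), a folate enzyme, and Gpt (0.885), alanine aminotransferase. Nr5a2 was most like Vcpip1 (0.919) and Ski (0.909), Prox1 most like Srcap (0.889) and Map7d1 (0.843), and Onecut1 most like Tmem9b (0.876) and Acy3 (0.829). Foxa2 with Swi5 (0.822) and Rpl27 (0.811), and Rxra with Fbxw8 (0.816) and Ubn1 (0.795), had the lowest values.

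Genes known as targets of these factors were read from fixed lists, whose members overlap. Of 15 tested HNF4A targets, 0 were called between genotypes under tunicamycin by edgeR (2 at an unadjusted p under 0.05), 12 had a negative value, and the median log2 fold change was -0.15, beside -0.01 over all genes. Its lowest p values belonged to Apoa2, an apolipoprotein of HDL, at -0.48 ± 0.19 (SE; edgeR adjusted p = 0.237) and Otc, a urea cycle enzyme, at -0.38 ± 0.17 (0.296). Of 8 FOXA targets 0 were called (0 at an unadjusted p under 0.05), 7 were negative, and the median was -0.17. Of 10 CEBPA targets 0 were called (0 at an unadjusted p under 0.05), 7 were negative, and the median was -0.13. Of 8 NR5A2 targets 1 fell, Nr0b2, 5 had an unadjusted p under 0.05, 6 had positive values and the median was 0.23. Beside these lists and the next, 0.861% of all genes were called in this comparison and 0.55% were called lower. The share of all genes at an unadjusted p under 0.05 was 15.8%. Among 23 tested products of differentiated hepatocytes 0 were called (6 at an unadjusted p under 0.05), 18 were negative, and the median was -0.14.

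Nr0b2 encodes SHP, a receptor without a DNA-binding domain that represses NR5A2 and HNF4A. It was at 2.78 to 5.09 CPM in WT tunicamycin and 0.869 to 2 CPM in LKO tunicamycin, without overlap, which is -1.51 ± 0.32 on the log2 scale (SE; edgeR adjusted p = 0.0405). It was the single gene called in this comparison among 29 tested of 30 other liver-enriched transcription factors, whose median was -0.01, where 0.861% of all genes were called. How this call on Nr0b2 depends on the processing was not tested. None of 14 tested nuclear receptor partners of RXRA was called (2 at an unadjusted p under 0.05; median -0.03), nor any of 18 coactivators and corepressors (2 at an unadjusted p under 0.05; median 0.10), among which Med1, a subunit of Mediator, stood at -0.44 ± 0.14 (adjusted p = 0.133).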

How the data were processed

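Poly(A) RNA of mouse liver was sequenced in 14 libraries. Per the file headers and the submitters' processing notes, the authors aligned reads with STAR to mm10 after Trimmomatic and deposited STAR's count of uniquely mapped reads per gene and a table of FPKM values from Cufflinks, with versions and gene annotation not given in the sources used here. Counts on the gene's strand were used (99.48% to 99.61% of counted reads); reads on no gene or on several, 40.9% to 44.8% of uniquely mapped reads, were left out. LKO vehicle replicates 3 and 4 were summed.

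Genes passing filterByExpr (9644 of 24411) were scaled by TMM and fitted over all 4 groups with edgeR 4.0.16 (glmQLFit and glmQLFTest, R 4.3.3; common biological coefficient of variation 0.155), with Benjamini-Hochberg adjustment over all genes and a call at an adjusted p under 0.05. Total count scaling, DESeq2 1.42.0 and limma 3.58.1 on log2(FPKM + 1) or log2(FPKM + 0.1) were among 24 alternatives. The fit was tested on simulated data. CPM values are TMM-scaled; log2 CPM used a prior count of 2. At the lowest, a member rested on 16 reads in a sample (Onecut1), which limits the precision of the low genes. Opposite-strand reads were 0.086% (Rxra) to 2.7% (Foxa1) of sense and opposite-strand reads together. No read was counted separately for a lincRNA gene that overlaps Onecut1 on its strand. Whether reads of that gene were counted to Onecut1 was not tested.

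The members and lists were chosen with earlier results of these data known. Named were all members, Rbbp5, called genes of each list (at most 5 of largest change) or else the 2 of smallest p, and the 2 genes most correlated with each member (mean log2 CPM of at least 2). Of the genes on these lists, 2 are not reported here by name. Ddit3 and Hspa5 were added afterwards as a check of the treatment. Protein sequences were not used here.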

Additional observations from a re-analysis of the deposited data

Results flagged for a closer look

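In 2 of the 9 groups of 4 samples examined (the LKO tunicamycin samples, 1 group a member), the highest sample stood far from the rest by Dixon's test, and chance alone gives this in about 1 of 20 groups. Onecut1 was at 18.5 CPM in LKO tunicamycin 4, against 7.16 to 8.97 CPM in the other 3 samples. Rxra was at 94.1 CPM in the same sample, against 86.1 to 87.1 CPM in the others, although 94.1 CPM is inside the range of Rxra in the WT tunicamycin and LKO vehicle groups. Without LKO tunicamycin 4, the log2 difference between genotypes under tunicamycin was -0.08 for Onecut1 in place of 0.34, and neither value passed the test.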

How the results depend on the processing

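Over 24 alternatives, 921 of 1071 recomputed fold changes of members kept their direction and their side of the threshold, 8 kept their direction with no adjusted p from DESeq2, 42 lost a call, 10 gained one and 90 changed sign; the cause was not tested. The number of members called between genotypes under tunicamycin was 2, where 0.861% of all genes were called. It was 1 with total count scaling (1.7% of all genes) and with fits of only the groups compared (0.294%). It was 0 with each of the 3 limma fits of FPKM, which called 0.0427%, 0.0488% and 0.868% of all genes. When 1 sample was left out it was 0 to 2. The fits with 0 were those without WT tunicamycin 1 (0% of all genes) and without LKO tunicamycin 4 (0.147%). For the genotype average the number of members called was also 2, where 2.21% of all genes were called. It was 1 with total count scaling, no filter, 14 libraries and without Rn45s and Lars2. These fits called 2.71%, 3.16%, 2.43% and 2.17% of all genes. The number of members was 0 with the 3 limma fits, which called 0.262%, 0.451% and 0.912% of all genes, and 1 to 2 when 1 sample was left out. For tunicamycin in WT, 0 members were called, where 0.363% of all genes were called. The number of members was 1 with DESeq2 (3.35% of genes with an adjusted p) and with no filter (1.78% of all genes). It was 0 to 1 when 1 sample was left out, with the 1 in the fit without WT tunicamycin 3 (6.19% of all genes). For the tunicamycin average the number of members was also 0, where 4.32% of all genes were called. It was 1 with total count scaling (8.4% of all genes), counts on either strand (4.49%) and 14 libraries (6.89%). When 1 sample was left out it was 0 to 3. Counts over all genes ranged, across alternatives, from 0 to 261 under tunicamycin between genotypes (83 as reported), 0 to 84 with vehicle (4), 0 to 615 for tunicamycin in WT (35), 0 to 153 in LKO (3), 41 to 514 for the genotype average (213), 19 to 1085 for the tunicamycin average (417) and 0 to 2 for the interaction (0). With total count scaling the median over all genes moved by -0.19 for tunicamycin in WT and by 0.15 for genotype under tunicamycin.

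Deviations of same-numbered samples from their group means had correlations of -0.12 to 0.14 over 18 pairs, 3 above 0.1. A sample was closest to its own number in 17 of 36 comparisons, each among the 3 or 4 samples of another group. No chance level was computed for that count, so whether equal numbers share a deviation was not tested. With the number as a replicate block, 0 members were called between genotypes under tunicamycin (Foxa3 at an adjusted p of 0.051, Hnf4a at 0.108) and 1 in the genotype average. Over all genes the block gave 32 and 167 calls in these contrasts.

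The values of changed sign were as follows. DESeq2 gave -0.004 and no filter gave -0.0072 for Rxra between genotypes with vehicle. Total count scaling gave Hnf4a -0.02 and Nr5a2 -0.08 for tunicamycin in WT, and Foxa2 0.15, Cebpa 0.11 and Rxra 0.12 for genotype under tunicamycin. Counts on either strand gave Foxa1 0.0065 for tunicamycin in LKO. Keeping 14 libraries gave Onecut1 0.16 for tunicamycin in LKO, and Cebpa -0.01 and Rxra -0.04 for genotype with vehicle. Leaving out Rn45s and Lars2 gave Foxa2 0.0031 for genotype under tunicamycin, and fits of only the groups compared gave Nr5a2 0.001 for genotype with vehicle. Both limma fits on log2(FPKM + 1), with or without a mean FPKM of at least 1, gave Nr5a2 -0.05 for tunicamycin in WT, Onecut1 0.21 and Nr5a2 0.0029 for genotype with vehicle, and Foxa2 0.05, Cebpa 0.13, Prox1 0.02 and Rxra 0.10 for genotype under tunicamycin. On log2(FPKM + 0.1) these were Prox1 -0.0016 and Nr5a2 -0.09, Onecut1 0.39 and Nr5a2 0.0035, and Foxa2 0.07, Cebpa 0.14, Prox1 0.06 and Rxra 0.11, with Foxa2 -0.03 for tunicamycin in LKO. The replicate block gave Foxa2 -0.24 for tunicamycin in LKO, Nr5a2 0.0033 for genotype with vehicle and Onecut1 -0.13 for genotype under tunicamycin.

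Ranges when 1 sample was left out held both signs, for genotype with vehicle, in Rxra (-0.07 to 0.10), Foxa2 (-0.54 to 0.0035), Onecut1 (-0.61 to 1.07), Nr5a2 (-0.05 to 0.02) and Cebpa (-0.04 to 0.17). For genotype under tunicamycin they did so in Foxa1 (-0.39 to 0.11), Foxa2 (-0.28 to 0.21), Cebpa (-0.22 to 0.12), Onecut1 (-0.10 to 1.72), Prox1 (-0.57 to 0.10), Nr5a2 (-0.19 to 0.25) and Rxra (-0.11 to 0.05). For tunicamycin in WT they did so in Foxa2 (-0.49 to 0.06), Onecut1 (-1.88 to 0.71), Prox1 (-0.07 to 0.59), Nr5a2 (-0.05 to 0.38) and Rxra (-0.10 to 0.05), and in LKO in Foxa1 (-0.19 to 0.08), Foxa2 (-0.23 to 0.22), Foxa3 (-0.02 to 0.19), Onecut1 (-0.49 to 0.32) and Rxra (-0.16 to 0.0073). Leaving out samples other than the summed LKO vehicle sample, Onecut1 for tunicamycin in LKO ran from -0.44 to 0.32 and Rxra for genotype with vehicle from -0.07 to 0.01; without the summed sample, Onecut1 for genotype with vehicle was 0.33. The tunicamycin average of Hnf4a ran from -0.08 to 0.03. Depth limits the low genes most: Foxa2 had 18 to 59 and Onecut1 16 to 197 reads a sample.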

Other observations

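Averaged over genotypes, tunicamycin called 4.32% of all genes by edgeR and 0 of 9 members, and some genes of the lists around these factors were called. Among 29 tested other liver-enriched transcription factors, 1 was called higher and 1 lower. Atf5, a stress-responsive leucine zipper factor, rose by log2 0.54 ± 0.13 (SE; edgeR adjusted p = 0.0254). Ppara, the receptor of fatty acid oxidation and a partner of RXRA, fell by 0.44 ± 0.12 (0.0407). The CPM of Atf5 was 18.7 to 25.1 in WT vehicle, 27.9 to 34.4 in WT tunicamycin, 18.2 to 27.8 in LKO vehicle and 29.9 to 45.3 in LKO tunicamycin. That of Ppara was 103 to 127, 72.9 to 87.2, 92.1 to 118 and 66.9 to 102 in the same order.

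Of 10 CEBPA targets in that average, 1 was called higher and 1 lower. Hp, the acute-phase protein haptoglobin, rose by 1.62 ± 0.31 (SE; edgeR adjusted p = 0.0155), and Gys2, the liver glycogen synthase, fell by 0.55 ± 0.15 (0.0407). Of 15 tested HNF4A targets 1 was called, Otc, which fell by 0.51 ± 0.12 (0.0297). Of 8 NR5A2 targets 1 was called lower, and of 8 FOXA targets 0 were called. Among 23 tested hepatocyte products 3 were called higher and 2 lower, Otc being 1 of the latter. The fibrinogen genes Fgg, Fgb and Fga rose by 1.17, 1.16 and 1.13 (edgeR adjusted p = 0.0179, 0.0190 and 0.0223). Hpd, an enzyme of tyrosine breakdown, fell by 0.47 (0.0278). In WT livers all of these genes overlapped between treatments: Hp was at 453 to 2470 CPM with tunicamycin and 357 to 479 with vehicle, and Fgg at 1030 to 3390 and 904 to 1170. In LKO livers only Gys2 overlapped, and Hp was at 1660 to 2020 CPM with tunicamycin and 566 to 1330 with vehicle. With the deletion averaged over treatments, 2.21% of all genes were called by edgeR. Among 23 tested hepatocyte products 1 was called, Serpina1c, an alpha-1 antitrypsin gene with near-identical copies, which fell by 0.43 ± 0.11 (edgeR adjusted p = 0.0481). Of 29 tested other liver-enriched transcription factors 1 was called, Nr0b2, which fell by 0.94 ± 0.22 (0.0367). Cd24a, the 1 gene of the 12 fetal liver genes with enough reads to test, rose by 1.03 ± 0.26 (0.0475), while Afp and H19 had at most 9 and 7 reads in any sample. The level of Cd24a was low, at 0.583 to 1.03 CPM in WT vehicle and 1.3 to 3.09 in LKO vehicle. Under tunicamycin it was at 0.926 to 2.06 CPM in WT and 1.74 to 2.4 in LKO, which overlap. How the calls on these list genes depend on the processing was not tested.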
